A study of Mus musculus with 8 samples.

Results

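Leukocyte integrins are the 10 genes Itgam, Itgax, Itgal, Itgb2, Itga4, Itga5, Itga6, Itgb1, Itgb3 and Itgb7. They were read through every probe set of the array whose platform annotation gave 1 of these symbols alone, which found 25 of 45101 probe sets and all 10 genes, among 18193 named genes. The samples were leukaemic spleen cells of 4 mice with acute myeloid leukaemia driven by the MLL-AF10 fusion gene. By the labels, bone marrow stem and progenitor cells positive for c-kit were transduced with a retrovirus, immortalised, and transplanted into syngeneic CD57BL/6 mice (so spelled in the labels) after sub-lethal irradiation. Cells of each spleen were sorted on surface c-kit, the receptor CD117, into a c-kit-high fraction (CD117pos) and a c-kit-negative or low fraction (CD117neg), so that both groups carried the same fusion and differed in the sort. Each fraction of each mouse gave 1 array. The mice are called by the endings of the array titles, _948, _951, _952 and _953. The sources used here do not give the promoter that drove the fusion, the age of the mice or whether their leukaemias came from separate transductions.

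Integrins are cell-surface receptors made of an alpha and a beta chain. On leukocytes the beta2 chain (Itgb2) pairs with the alphaL, alphaM and alphaX chains to form LFA-1, the complement receptor Mac-1 (CD11b/CD18) and CD11c/CD18, which bind ICAMs, complement fragments and fibrinogen during firm adhesion and phagocytosis. The alpha4, alpha5 and alpha6 chains pair mainly with beta1 and bind VCAM-1 or fibronectin, fibronectin, and laminin, and alpha4 also pairs with beta7 to bind the gut vascular addressin. In normal myelopoiesis CD11b is a marker of maturing granulocytes and monocytes, whereas alpha4beta1 is found on haematopoietic progenitors.

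The values were array intensities as deposited, with array medians between 27.5 and 32.8, and an intensity near or below the median of its array is treated here as low. Differences are CD117pos minus CD117neg of log2(intensity + 16), folds are computed from them and understate changes of dim genes, and limma was fitted to all genes with the mouse as a block and Benjamini-Hochberg adjustment. A gene with several probe sets was read through the one whose log2 value averaged highest. Levels of different probe sets depend on their probes and are not compared with each other. Kit, the sorted receptor, had intensities of 15.7 to 39.2 in CD117neg and 599 to 909 in CD117pos without overlap, in the direction of the sort. The CD117pos array of mouse _951 stood apart. Its correlations with the other CD117pos arrays were 0.928 to 0.930, against 0.978 to 0.988 among CD117neg arrays. Integrin calls that ended without this array are given.

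Of the 10 integrin genes, 7 were lower in CD117pos (Itgb7, Itgax, Itgam, Itgal, Itgb2, Itga4 and Itgb3) and 0 were higher (limma, adjusted p under 0.05, and also 0 higher at an unadjusted p under 0.05). Over all genes tested, 22.2% were called by the same rule, 13.8% as lower and 8.36% as higher. The genes tested included many dim ones. In a fit limited to the 9954 genes with a mean of at least 50, 2581 were lower and 1721 higher. Of the 8 members of that brightness, 6 were lower and 0 higher. The members' median log2 difference was -1.11, beside -0.01 over all genes. In 5 members, Itgb7, Itgax, Itgam, Itgal and Itgb2, every CD117pos array lay below every CD117neg array, and in 0 members every one lay above. Among all genes the fractions did not overlap for 27.6%, with CD117pos below for 17.2% and above for 10.4%. The other called genes were Itga4, which fell within each mouse although the fractions overlapped between mice, and Itgb3, which was at low intensity. Itga5, Itga6 and Itgb1 did not pass. Of 7 listed neutrophil genes, 6 were lower. The summed intensities of the 7 fell, as the called integrins did, from 34561 to 40811 in CD117neg to 8662 to 17410 in CD117pos. The part of these genes in the integrin differences was not tested. The lowest sum was in mouse _951, and the other CD117pos sums began at 15152. The median difference of this list was -4.75. Camp and Ngp made up most of the CD117pos sums with means of 6067 and 7257, whereas Mmp8, Mmp9, Cxcr2 and Ltf differed by -6.06, -5.81, -5.57 and -4.75. In such bulk samples, fewer cells of a type and less RNA per cell cannot be told apart. Without mouse _948 the count fell to 4, because the calls of Itgam, Itga4 and Itgb3 ended. It was 6 without mouse _951, 5 without _952 and 6 without _953. With no block it was 5, both with all arrays and when the _951 CD117pos array was omitted.

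**Figure D1:**
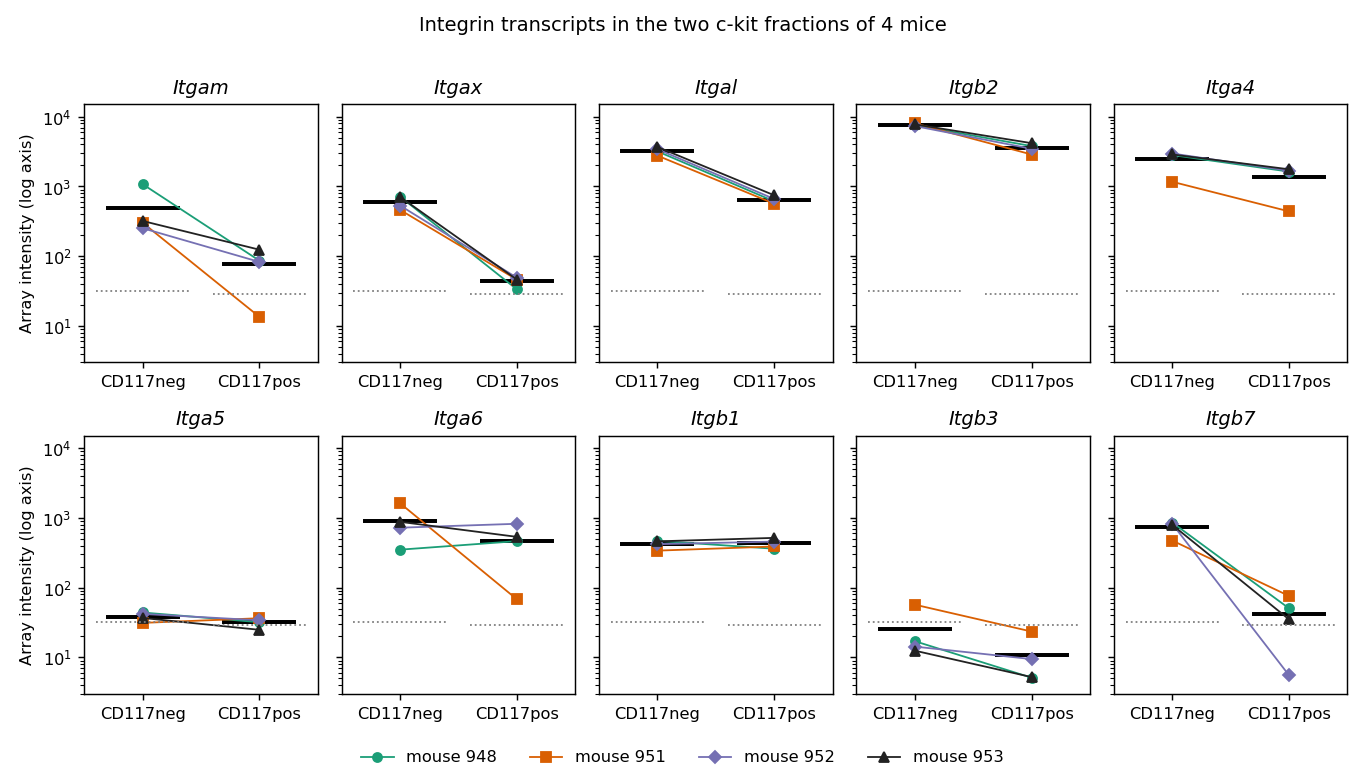
Array intensity (log axis) of each integrin gene in the CD117neg and CD117pos arrays of 4 mice, with a line for each mouse, black bars for the mean of each fraction and dotted lines for the mean of the array medians. Itgax falls from 462 to 717 in the CD117neg arrays to 33.5 to 49.2 in the CD117pos arrays, whereas Itgb1 stays between 340 and 518 in all arrays.

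The sequences upstream of 4 members are printed to set genes that fell with a large difference (Itgam, Itgax and Itgb7) beside 1 that did not pass (Itgb1). RefSeq promoters (GRCm38.p6) matched 6 of the 10 members, and the 250 bases before the annotated start are shown, 5′ to 3′ on the gene's strand. They lie at chr7:128062390-128062639 (plus strand) for Itgam, chr7:128129300-128129549 (plus strand) for Itgax, chr15:102231936-102232185 (minus strand) for Itgb7 and chr8:128685404-128685653 (plus strand) for Itgb1. Capitals mark GAGGAA on either strand, a core bound by ETS factors such as PU.1 (TTCCTC is the same motif on the opposite strand).
Itgam: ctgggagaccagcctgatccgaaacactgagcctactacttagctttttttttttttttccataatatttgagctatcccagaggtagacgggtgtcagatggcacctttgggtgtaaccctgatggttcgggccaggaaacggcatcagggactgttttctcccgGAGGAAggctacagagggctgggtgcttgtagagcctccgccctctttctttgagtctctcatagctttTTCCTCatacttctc
Itgax: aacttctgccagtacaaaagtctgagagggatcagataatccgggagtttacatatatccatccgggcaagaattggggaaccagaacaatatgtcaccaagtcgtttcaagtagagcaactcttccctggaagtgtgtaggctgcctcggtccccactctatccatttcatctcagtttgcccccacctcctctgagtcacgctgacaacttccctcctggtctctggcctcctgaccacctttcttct
Itgb7: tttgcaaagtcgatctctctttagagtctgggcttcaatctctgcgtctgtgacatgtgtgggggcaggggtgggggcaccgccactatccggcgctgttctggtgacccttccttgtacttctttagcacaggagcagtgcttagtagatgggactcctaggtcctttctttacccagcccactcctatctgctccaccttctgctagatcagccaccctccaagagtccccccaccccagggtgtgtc
Itgb1: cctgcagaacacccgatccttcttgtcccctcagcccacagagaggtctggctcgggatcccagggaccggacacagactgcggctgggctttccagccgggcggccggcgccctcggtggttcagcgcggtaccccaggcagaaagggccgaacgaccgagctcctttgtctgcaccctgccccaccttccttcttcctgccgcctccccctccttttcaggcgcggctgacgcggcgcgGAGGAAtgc
GAGGAA was found in 23.3% of all 32851 promoter windows of this length. It occurred at 2 places in the Itgam window, at 84 to 79 and at 15 to 10 bases before the start, the latter on the opposite strand, and at 0 places in those of Itgax, Itgb7 and Itga4. The windows of Itgb1 and Itga5, genes that did not pass, held 1 match each. TATAAA, the TATA box core, was found on neither strand in any of the 6 windows and in 12.4% of all windows. GGGCGG, the Sp1 core, was found on either strand in 32.7% of all windows, with 1 match in Itgam, 1 in Itga4, 2 in Itga5 and 1 in Itgb1. TGTGGT, the RUNX core (14.0% of all windows), had 1 match, in Itga4, and CCAAT (33.8%) had 1, in Itgax. All motifs were searched on both strands, and no matches overlapped. A match here is a description of the letters and says nothing on binding.

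Among alpha chains that pair with beta2, Itgax (probe set 1419128_at), encoding CD11c, had the most negative fitted difference, although in mouse _951 that of Itgam was more negative. Its intensities in CD117neg were 717, 462, 533 and 709 in mice _948, _951, _952 and _953, and in CD117pos 33.5, 46.2, 49.2 and 46.3 in the same order. The fractions did not overlap, and the CD117pos values lay close to the array medians. The log2 difference was -3.36 ± 0.19 (SE), a 10.3-fold lower level on this scale (limma, adjusted p = 0.000556), and lay between -3.89 and -2.94 in all 4 mice. Its size depended on the pseudocount, with -3.75 for 1 and -2.62 for 64.

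Itgal (1435560_at), encoding CD11a of LFA-1, had the most even difference. Its CD117neg intensities were 3190, 2767, 3421 and 3683 and its CD117pos intensities 611, 566, 661 and 747, in the same order of mice. All 8 values were far above the array medians and the fractions did not overlap. The difference was -2.31 ± 0.11, or 4.95-fold lower (limma, adjusted p = 0.000321), with a range of only -2.35 to -2.26 over the mice. The other Itgal probe set (1425367_at) gave means of 285 ± 37.4 and 73.7 ± 4.84 (SD, n = 4) and a smaller difference of -1.74 ± 0.13 in the fit across all probe sets.

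Itgam (1422046_at), encoding CD11b, varied most among mice in this group. Its CD117neg intensities were 1079, 302, 252 and 320, and its CD117pos intensities 86.3, 13.5, 82.8 and 124. The CD117neg array of mouse _948 was thus the highest by far, the CD117pos array of mouse _951 was the lowest and below its array's median, and the fractions did not overlap. The log2 difference was -2.39 ± 0.45, or 5.24-fold lower (limma, adjusted p = 0.0160). It was -3.42 and -3.43 in mice _948 and _951, but -1.44 and -1.26 in mice _952 and _953. Without mouse _948 the difference was -2.05 and did not pass (limma, adjusted p = 0.0734). With the _951 CD117pos array and the block omitted it was -1.91 and passed (0.0119).

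Itgb2 (1450678_at), the beta chain shared by these 3 alpha chains, fell by less on the log2 scale. Its intensities were 7552, 8036, 7344 and 7771 in CD117neg and 3791, 2871, 3467 and 4175 in CD117pos, without overlap. The log2 difference was -1.11 ± 0.14, or 2.16-fold lower (limma, adjusted p = 0.00520), between -1.48 and -0.89 in the 4 mice. The transcript therefore remained at a high intensity in c-kit-high cells. Within each mouse the differences of Itgam, Itgax and Itgal were more negative than that of Itgb2, on average by 1.28, 2.25 and 1.20 log2 units. These were 3 of 6 pairs of chains compared, chosen after their values were seen. In the exact permutation test, two-sided with the fractions exchanged within mice, 2 of 16 sign patterns were as extreme for each of the 6 pairs, the fewest that 4 mice allow, so that no pair could pass a threshold of 0.05 before or after Benjamini-Hochberg adjustment.

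Itgb7 (1418741_at), the beta7 chain of gut-homing integrins, had the most negative difference of the members in the fit of all 4 mice. Its CD117neg intensities were 859, 474, 823 and 795, and its CD117pos intensities 50.5, 76.1, 5.54 and 35.1. Mouse _951 was lowest among the CD117neg arrays and highest among the CD117pos arrays, and the fractions did not overlap. The difference was -3.85 ± 0.44, or 14.4-fold lower (limma, adjusted p = 0.00389). Without mouse _952, whose CD117pos value of 5.54 was below its array's median, Itgb7 was at -3.37 and Itgax at -3.46, so that their order turned. The Itgb7 difference ran from -5.28 in mouse _952 to -2.41 in mouse _951. The CD117pos values were above the array median in 3 of 4 arrays but dim, and the size depended on the pseudocount (range -4.53 to -2.93 over the alternatives).

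Itga4 (1436037_at), encoding the alpha4 chain that pairs with beta1 or beta7, fell by less but within every mouse. Its CD117neg intensities were 2823, 1167, 2968 and 2875 and its CD117pos intensities 1631, 439, 1683 and 1762. Mouse _951 was lower than the other mice in both fractions, so that its CD117neg value lay below 3 of the 4 CD117pos values and the fractions overlapped. The difference was -0.92 ± 0.15, or 1.89-fold lower (limma, adjusted p = 0.0112), and was -0.79, -1.38, -0.81 and -0.70 in the mice. The mouse terms of the fit for Itga4 gave an unadjusted p of 0.000829 and an adjusted p of 0.302 (limma, moderated F-test). The call needed the block, since without it the adjusted p was 0.233, and it ended without mouse _948 (0.0556) and without mouse _952 (0.0531). With the _951 CD117pos array and the block both omitted, the difference was -0.44 and the adjusted p 0.346.

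Of the 4 other probe sets of Itga4, 2 were also lower. 1456498_at, with CD117neg values of 596, 142, 464 and 454 and CD117pos values of 134, 24.8, 165 and 139, gave a difference of -1.75 ± 0.15. 1421194_at, with means of 92.9 ± 48.9 and 38.7 ± 22.0 (SD, n = 4), gave -0.96 ± 0.13, and mouse _951 was again the lowest in both fractions. Both passed in the fit across probe sets (limma, adjusted p = 0.00220 and 0.00727) and, like the brightest, lost the call without the block (0.0616 and 0.239). The remaining 2, with means under 50, did not pass. 1450155_at gave -0.55 (limma, adjusted p = 0.152), and 1427615_at gave -0.01 (0.978), with mouse _951 highest in CD117pos at 21.9, against 4.71 to 7.11. In all 4 mice the difference of Itgb7 was more negative than that of Itga4, by 2.93 log2 units on average (exact permutation test, 2 of 16 sign patterns as extreme).

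Itgb1 (1426918_at), the beta chain of the fibronectin and VCAM-1 receptors, showed no difference past the threshold. Its intensities were 470, 340, 421 and 462 in CD117neg and 362, 390, 458 and 518 in CD117pos, with full overlap. The log2 difference was 0.03 ± 0.14, with a 95% interval from -0.32 to 0.37 (limma, adjusted p = 0.923), so a change in either direction of up to that size is compatible with these arrays. Its sign depended on the mice and probe sets included. The next brightest probe sets of Itgb1, 1452545_a_at and 1427771_x_at, the latter of a type that shares sequence with other transcripts, gave 0.22 ± 0.13 and 0.25 ± 0.20, neither past the threshold. Within each mouse the differences of Itgb2 and Itga4 were more negative than that of Itgb1, by 1.14 and 0.95 log2 units on average (exact permutation test, 2 of 16 sign patterns as extreme for each).

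Itga6 (1422445_at), encoding the alpha6 chain of laminin receptors, diverged between mice. Its intensities were 351, 1627, 725 and 880 in CD117neg and 465, 68.3, 825 and 536 in CD117pos. Mouse _951 held both the highest CD117neg and the lowest CD117pos value, a difference of -4.28, whereas the other mice gave 0.39, 0.18 and -0.70. The overall difference of -1.10 ± 0.79 did not pass (limma, adjusted p = 0.395). Without mouse _951 the difference was -0.04 (adjusted p = 0.919), and with only its CD117pos array and the block omitted it was -0.39 (0.581). The other Itga6 probe set (1422444_at) had CD117neg values of 184, 467, 223 and 207 and CD117pos values of 162, 38.8, 384 and 255, with the same extremes in mouse _951.

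Itga5 and Itgb3 were at low intensity on all their probe sets. Itga5, encoding the fibronectin receptor alpha chain (1457561_at), had values of 44.1, 31.3, 42.1 and 36.8 in CD117neg and 32, 36.5, 34.1 and 24.9 in CD117pos, all close to the array medians. Its difference of -0.19 ± 0.13 did not pass (limma, adjusted p = 0.390). A dimmer Itga5 probe set went from 8.53 ± 4.02 to 19.8 ± 6.32 (SD, n = 4) without overlap, but every value was below its array's median and the difference did not pass (limma, adjusted p = 0.123). Itgb3 (1455257_at), the beta chain of the vitronectin and platelet fibrinogen receptors, had CD117neg values of 17.1, 57.1, 14.3 and 12.5 and CD117pos values of 5.12, 23.5, 9.47 and 5.23. Mouse _951 was the highest in both fractions, and its CD117neg array was the only 1 of 8 above its median. The Itgb3 difference of -0.55 ± 0.14 passed narrowly over genes (limma, adjusted p = 0.0447) but not over probe sets (0.0543). The Itgb3 call ended in 9 of 13 alternatives, among them the omission of any 1 mouse (0.0543 to 0.170) and of the block (0.292).

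Over all 25 probe sets, 9 were lower and 0 higher (limma, adjusted p under 0.05), beside 16.5% called, 10.9% lower and 5.60% higher among the 45037 probe sets other than controls. Omitting 1 mouse left 7 to 9 lower. The fractions did not overlap for 7 of the 25, with CD117pos below in 6 and above in 1, and for 23.1% of all probe sets, 15.0% below and 8.08% above. One member probe set was higher at an unadjusted p under 0.05, the dim Itga5 probe set above. The 14 probe sets with a mean of at least 50 over the 8 arrays included all 9 calls, and the other 11, with means from 3.11 to 35.2 and differences from -0.55 to 0.54, had 0 calls. For Itgal and Itga4, all probe sets in the brighter class agreed in direction and passed, and for Itga6 and Itgb1 none of the probe sets passed.

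**Figure D2:**
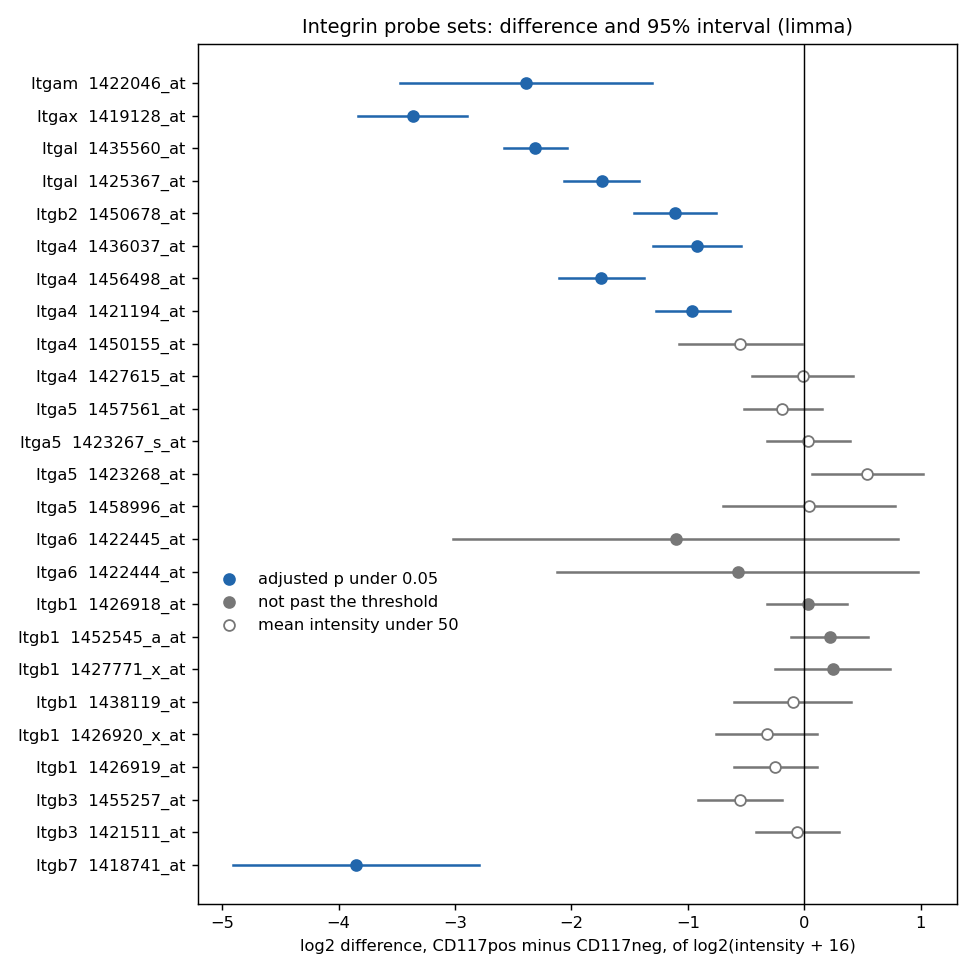
Difference between fractions, with its 95% interval from limma, for each of the 25 integrin probe sets, with filled points for a mean intensity of at least 50 and blue for adjusted p under 0.05. The 9 blue points belong to Itgam, Itgax, Itgal, Itgb2, Itga4 and Itgb7, and the Itga6 intervals are the widest among the points not past the threshold.

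The mice did not show the members alike. The median difference over the 10 genes was -0.89, -1.87, -0.95 and -0.80 in mice _948, _951, _952 and _953, beside medians between -0.05 and -0.0047 over all genes. Mouse _951 had the most negative difference for Itgb2, Itga4, Itga6 and Itgb3, and narrowly for Itgam, and the least negative for Itgax, Itgal and Itgb7. Its CD117pos array also had the lowest summed intensity of listed neutrophil genes (8662, against 15152 to 17410 in the other CD117pos arrays) and of listed monocyte and macrophage genes (3311, against 4076 to 6475), and the part of these in the integrin values was not tested.

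**Figure D3:**
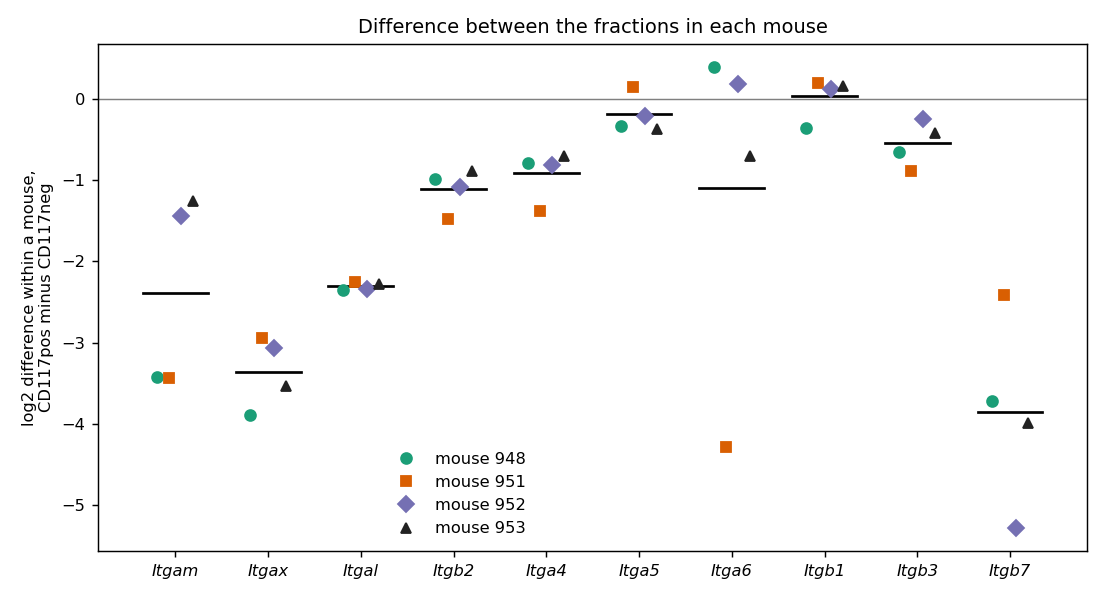
Difference of log2(intensity + 16) between the fractions within each mouse, 1 point per mouse, with a black bar at the fitted difference of each gene. The Itgal points lie between -2.35 and -2.26, whereas the Itga6 points spread from -4.28 in mouse _951 to 0.39 in mouse _948.

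For each called member, the 3 genes with the closest profile were found by the root mean square distance between log2 values over the 8 arrays, each centred on its own mean, among 9953 or 9954 other genes with a mean of at least 50. Those of Itgal were Plk3, Ssh2 and Stk10, at distances of 0.121 to 0.167. Those of Itgb2 were Mlxip, Tmem120a and Msra (0.0799 to 0.0867), and those of Itgax were Sema4d, Klhl41 and Sgk1 (0.150 to 0.202). For Itga4 they were Itprid2, Rwdd2a and Nlrx1 (0.184 to 0.242) and for Itgb3 Igf1r, Carns1 and Frat1 (0.193 to 0.218). The nearest genes were farther away for Itgam (Errfi1, Smim5 and Pi16, 0.436 to 0.468) and Itgb7 (Asprv1, Zfp36l1 and Cd86, 0.434 to 0.543). None of the other members was among these genes, and the 8 arrays share the contrast between the fractions.

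Among 15 measured other integrin chains, 4 were lower and 0 higher, with a median difference of -0.05. Itgb2l, encoding a relative of the beta2 chain, went from 1043 ± 279 to 65.8 ± 34.1 (SD, n = 4), a difference of -3.77. Itga1, encoding a collagen receptor chain, went from 939 ± 309 to 62.5 ± 39.6 (-3.70), Itgb5 from 1610 ± 183 to 550 ± 307 (-1.75) and Itgav, the alpha chain that pairs with Itgb3 and Itgb5, from 1663 ± 428 to 1073 ± 327 (-0.65). The call of Itgb5 ended without mouse _948, _952 or _953 (limma, adjusted p = 0.0740, 0.0643 and 0.103), and that of Itgav without the same mice (0.0637, 0.0590 and 0.0671), without the block (0.165) and when its probe sets were averaged (0.170). Omitting any of these mice left 2 of the listed chains lower. With a pseudocount of 1 the Itgb5 call ended too (0.0560), and without mouse _951 its difference was -1.25. The Itgav call also ended with the _951 CD117pos array and the block omitted (-0.38, adjusted p = 0.235). The differences of Itgb2l and Itga1 were -4.12 and -4.08 with a pseudocount of 1 and -3.10 and -2.99 with 64. Itga3, Itga8, Itga10, Itgae, Itgb4 and Itgb8 had values below the array median on every array. Itga2b, the platelet partner of Itgb3, measured 47.0 ± 4.28 and 47.9 ± 30.9.

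Of 21 measured genes that regulate or couple integrin activation, 11 were lower and 1 higher, with a median of -0.54. The list holds genes that oppose activation too, and the lower genes included Rap1gap2 and Sipa1, which inactivate the small GTPase Rap1. Fyb, an adaptor that couples immune receptors to integrin activation, went from 1828 ± 231 to 17.3 ± 8.08 (SD, n = 4), a difference of -5.81. All its CD117pos values were below the array medians, so its size depended on the pseudocount (-6.75 with 1 and -4.54 with 64). Rap1gap2 differed by -3.98, Sipa1 by -1.31, and Apbb1ip, the Rap1 effector that recruits talin, by -1.78. The call of Apbb1ip ended without mouse _952 or _953 and with a pseudocount of 1 (limma, adjusted p = 0.0885, 0.0804 and 0.0560), and its difference was -1.32 without mouse _951. That of Sipa1 (limma, adjusted p = 0.0431) ended without mouse _948, _952 or _953 (0.120, 0.0817 and 0.121), with a pseudocount of 1 (0.0820) and after quantile normalisation or centring (0.0637 and 0.0523), and its difference was -0.87 without mouse _951. Talin and kindlin-3 bind beta chain tails directly. Tln1 was 3113, 3009, 3125 and 3117 in CD117neg and 1673, 1795, 1657 and 1823 in CD117pos, a very even fall of -0.83 ± 0.11, and Fermt3 (kindlin-3) differed by -0.82, a call that ended without mouse _948 or _953 (0.0772 and 0.0898) or its probe sets of shared sequence (0.103). The 1 higher gene was Rapgef3, an exchange factor for Rap1, which went from 494 ± 247 to 1369 ± 720, with a difference of 1.44, or 1.12 with the _951 CD117pos array and the block omitted. Its call was lost without mouse _952 or _953 (limma, adjusted p = 0.152 and 0.138) and with pseudocounts of 1 or 64 (0.0814 and 0.0644). Without mice _948, _952 and _953 in turn, 6, 7 and 5 genes of this list were lower, and with a pseudocount of 1 it was 7. Tln1, Fermt3, Rapgef3, Sipa1, Itgav, Cdh1, the marker genes named singly and the higher genes of the lists below were picked after their values were seen.

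Of 26 focal adhesion and tail-binding genes, 12 were lower and 0 higher, with a median of -0.67. Fgr, a Src-family kinase that signals from beta2 integrins, went from 2278 ± 156 to 120 ± 71.2 (SD, n = 4), a difference of -4.28. Lpxn, the leukocyte paxillin relative, differed by -3.20 (-3.78 and -2.31 with pseudocounts of 1 and 64) and Zyx, encoding zyxin, by -2.25. Without mouse _948, 7 were lower. Of 16 surface partners and homing receptors, 8 were lower and 2 higher, with a median of -0.78. Cd9, an integrin-associated tetraspanin, differed by -2.51, P-selectin (Selp) by -2.06 (-2.68 and -1.24 with pseudocounts of 1 and 64) and its ligand gene Selplg by -2.04. The 2 higher genes were the tetraspanin gene Cd81, by 0.49, and Slc7a5, an amino acid transporter light chain, by 0.97, and both calls ended without mouse _948 (limma, adjusted p = 0.115 and 0.0583). Cd81 also lost its call without _952 or _953 and with a pseudocount of 1 (0.132, 0.119 and 0.0788), and Slc7a5 without the block (0.0647) and without both the block and the _951 CD117pos array (0.0969). Without mice _948, _952 and _953 in turn, 5, 4 and 4 of this list were lower.

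Of 18 measured integrin ligand genes, 4 were lower and 1 higher, with a median of -0.05. Fn1, encoding fibronectin, a ligand of alpha4beta1 and alpha5beta1, went from 5425 ± 2847 to 205 ± 244 (SD, n = 4), a difference of -4.93. Thbs1, the thrombospondin-1 gene, differed by -4.18, Jam2 by -2.28 and Cdh1, the E-cadherin gene, by -1.66, the last from 48.9 ± 21.5 to 3.79 ± 1.99. With pseudocounts of 1 and 64 these were -4.67 and -3.31 for Thbs1, -3.31 and -1.29 for Jam2 and -3.40 and -0.72 for Cdh1, and all CD117pos values of Jam2 and Cdh1 were below the array medians. Vcam1, a ligand of alpha4beta1, was 498, 1704, 348 and 588 in CD117neg and 1676, 2445, 1820 and 924 in CD117pos. It was higher in all 4 mice, by 1.30 ± 0.33 (limma, adjusted p = 0.0421), although the fractions overlapped. The Vcam1 call ended without mouse _948, _952 or _953 (0.165, 0.114 and 0.0846), with pseudocounts of 1 or 64 (0.0763 and 0.0534), without the block (0.0867), without both the block and the _951 CD117pos array (0.131) and when its probe sets were averaged (0.0676). Over all 5 lists, 39 of 96 genes were lower and 4 higher, beside the 13.8% and 8.36% of all genes, which include many dim genes. With genes of a mean under 50 left out, fewer than 96 list genes remained. Of these, 40 were lower and 4 higher, beside 2581 and 1721 of 9954 genes. Leaving out mice _948, _952 and _953 in turn left 24, 25 and 24 list genes lower. Calls over all genes fell as well, from 2518 lower genes to 1230 without mouse _948.

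**Figure D4:**
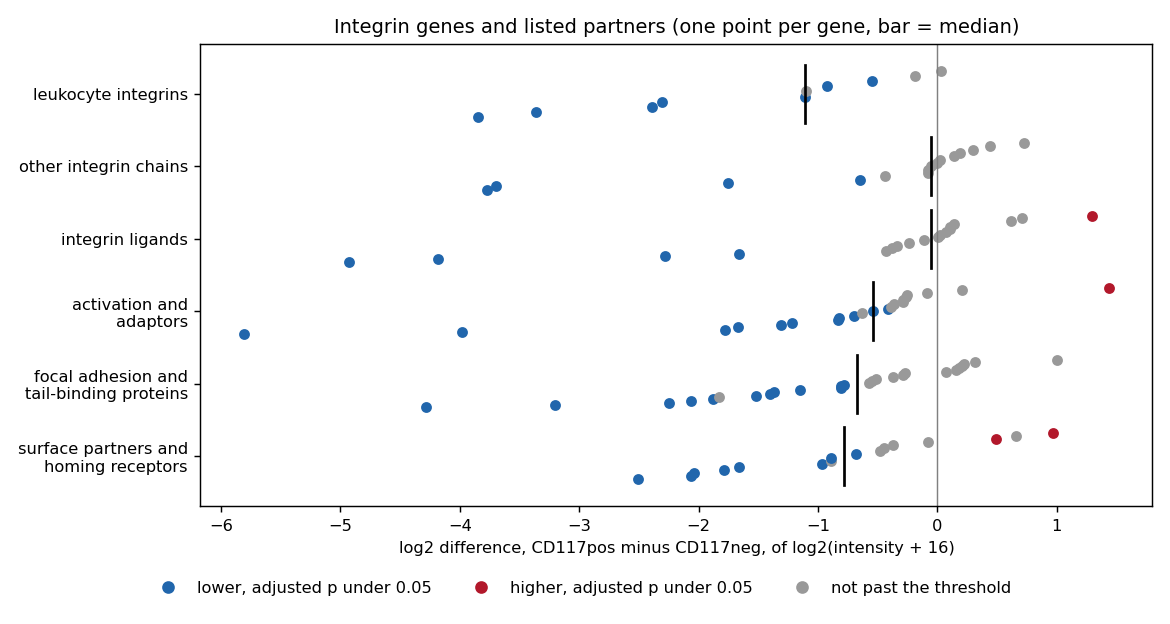
Difference of log2(intensity + 16) for the 10 leukocyte integrins and for 5 lists of related genes, 1 point per gene, with blue and red for lower and higher at adjusted p under 0.05 and a bar at the median of each list. Medians range from -1.11 for the leukocyte integrins to -0.05 for the other integrin chains and the ligands, and the lowest point is Fyb at -5.81.

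Listed markers of cell types were also read. In these bulk samples it cannot be told whether leukaemic or other cells gave their RNA. Besides the neutrophil genes given above, monocyte and macrophage genes were lower in 4 of 10 and higher in 1 (Vcam1), with sums of 15961 to 18307 and 3311 to 6475. These sums fell too, as the called integrins did, and the part of these genes in the integrin differences was likewise not tested. The lower genes had means in CD117neg and CD117pos of 7600 and 920 (Csf1r), 2794 and 190 (Cd14), 1906 and 484 (Cd68) and 980 and 40.7 (Cx3cr1). Adgre1, Mrc1, Marco, C1qa and C1qb were not called. Of these, Adgre1 was lower in all 4 mice, with means of 2642 and 1359 (limma, adjusted p = 0.0742). Mrc1, Marco and C1qa had means under 50 in both fractions. Of 7 dendritic cell markers, a cell type known for CD11c, 1 was lower (H2-Ab1), and the list median was -0.02. Sums were 228 to 795 and 129 to 184, and H2-Ab1, with means of 449 and 69.5, made up most of the CD117neg sums. The other 6 were not called, and Xcr1 and Ccr7 were at means under 8 in both fractions. Of 9 platelet and megakaryocyte markers, 1 was lower (Clec1b) and 5 stayed below the array median on every array, with sums of 177 to 299 and 167 to 220. Of 8 T cell markers 7, of 7 B cell markers 2, of 5 natural killer cell markers 3 and of 5 erythroid markers 4 stayed below the array median on every array. Among these 4 lists, 0 were lower and 1 was higher, Klra8, which measured 7.71 ± 5.93 and 19.3 ± 9.77 (SD, n = 4). All Klra8 values were below the array medians, on a probe set of a type that shares sequence with other transcripts. Mast cell and basophil markers had sums of 97.2 to 269 in CD117neg and 304 to 350 in CD117pos, or 1298 in mouse _951, where Ms4a2 measured 722, with 1 of 6 higher (Mcpt8). Endothelial and stromal markers had sums of 290 to 333 and 202 to 216, or 858 in mouse _951, where Pdgfrb measured 551, with 1 of 8 lower (Pecam1). Of 4 plasma cell markers, 0 passed and 2 stayed below the array median on every array. Their sums of 3204 to 3759 and 2538 to 3189 were mostly Xbp1, with means of 3334 and 2764. Among the CD117pos arrays, that of mouse _951 had the highest sum for the T cell (590, against 96.7 to 167), natural killer cell (124, against 77.5 to 90.4), erythroid (110, against 49.5 to 72.4), plasma cell, mast cell and stromal lists and for the integrin ligands (6150, against 2054 to 3632). Of its T cell sum, 537 was Cd8a, on a probe set of a type that shares sequence with other transcripts. The other 7 T cell markers were those below the array median on every array. Its plasma cell sum was mostly Xbp1, at 3117, and Alas2 made up 54.9 of its erythroid sum.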

How the data were processed

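PolyA RNA of 4 CD117neg and 4 CD117pos arrays was hybridised to 1-colour Affymetrix arrays after 2-cycle amplification with biotin, per the labels' protocols. The authors deposited a linear intensity per probe set. The sources used here name neither the software nor any scaling across arrays, and no further normalisation was applied. Each array held 841 to 898 values of exactly 1. Arrays have no read depth, and their number limits the precision.

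Control probe sets (64) were omitted. Of the remainder, 34945 had 1 gene symbol in the platform annotation, 932 several and 9160 none. Of the first, 34741 probe sets had a gene identifier that matched a current mouse gene table (GRCm38.p6), with 0 changed symbols. Limma 3.58.1 in R 4.3.3 (lmFit, eBayes, two-sided) was fitted on log2(intensity + 16) over 18193 genes and, separately, over 45037 probe sets, with the mouse as a block, and was tested on simulated data. Figures used matplotlib 3.10.9 in Python 3.11.15. Means are ± SD over 4 arrays and log2 differences ± SE.

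The block follows from the design text, in which each mouse gave both fractions. Deviations from the fraction means correlated within mice _948, _951, _952 and _953 at 0.21, 0.22, 0.27 and 0.12 across genes, and at most at 0.03, -0.01, 0.11 and 0.11 with other mice. Array medians averaged 31.8 and 28.8 and upper quartiles 213 and 189 (exact permutation test within mice, 2 of 16 sign patterns as extreme for each, the fewest possible).

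The members and lists were chosen with earlier results of these data known. Named partners are up to 3 genes per list with the largest difference past the threshold and 1 direction in all mice, apart from those said to be picked after their values were seen. Alternatives changed the pseudocount, scaling, low-intensity filter, block, variance trend, probe-set rule and the mice included.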

Additional observations from a re-analysis of the deposited data

Results flagged for a closer look

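In 7 of 50 sets of 4 values (25 probe sets in 2 fractions), 1 array lay far from the other 3 on the log2 scale, where chance gives about 1 in 20, or 2.50 sets. Of the 7, 6 were arrays of mouse _951. The Itga4 intensity of its CD117neg array was 1167, against 2823 to 2968 in the other mice, and that of its CD117pos array was 439, against 1631 to 1762. On 2 dimmer Itga4 probe sets its CD117pos array read 24.8, against 134 to 165, and 6.83, against 44.7 to 57.4. These probe sets measure 1 gene and are not independent. In CD117neg of the same mouse, Itgb7 was 474, against 795 to 859, and Itgb3 was 57.1, against 12.5 to 17.1. The remaining set was Itgam in CD117neg, where mouse _948 read 1079, against 252 to 320. The causes were not tested.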

How the results depend on the processing

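Itgax, Itgal, Itgb2 and Itgb7 kept their direction and their call in all 14 alternatives, with differences of -3.75 to -2.62, -2.33 to -2.02, -1.18 to -0.99 and -4.53 to -2.93. Itgam lost its call in 1, Itga4 in 4 and Itgb3 in 9 of 13. Without the replicate block the count of lower members was 5 against 7, since Itga4 and Itgb3 ended (adjusted p = 0.233 and 0.292), and 2 listed partners were higher against 4; the pairing changed no other member's call. Leaving out 1 mouse gave 4 to 6 lower members, 0 higher members, 24 to 44 lower and 1 to 4 higher partners, 1219 to 2985 lower and 440 to 2130 higher genes, against 2518 and 1521, and 7 to 9 lower probe sets.

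Higher genes numbered 997 with a pseudocount of 1 and 2438 after quantile normalisation. Higher genes made up 37.7% of calls, 55.6% after quantile normalisation and 48.4% after centring, where the median over all genes was 0.06 and 0.08 in place of -0.01; the members had 7 and 6 lower and 0 higher. Higher partners numbered 2 with pseudocounts of 1 and 64 and when the _951 CD117pos array and the block were omitted, where 1 dim Itga5 probe set was higher (0.60). The Itgb1 difference was 0.16 without mouse _948, turned to -0.03, -0.0047 and -0.02 without _951, _952 or _953, and to -0.03 with the mean of its probe sets, which turned Itga5 to 0.11. The dimmer Itga6 probe set ranged from -1.01 to 0.29 over the omission of 1 mouse, with the latter without _951, and was 0.0027 without that mouse's CD117pos array and the block. None of the turned differences was called. The causes were not tested. Dim intensities limit Itga5, Itgb3 and the CD117pos levels of Itgax, Itgb7 and of the partners Fyb, Jam2, Cdh1, Selp, Lpxn and Thbs1, whose folds depend on the pseudocount.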
